A study of Mus musculus with 4 samples.

Results

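The genes of the mitochondrial genome were taken as all rows of 4 plate count tables whose name ends in the chromosome field MT. There were 35 such rows among 35998 rows outside the ERCC spike-ins, and this rule uses no measured value. The mouse mitochondrial genome has 37 annotated genes, of which 13 protein-coding genes, 2 rRNA genes and 20 of 22 tRNA genes had a row. The tRNA genes mt-Tk and mt-Ty had none.

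The cells were single cells sorted from the hypothalamus of C57BL/6 mice carrying Lepr-cre and Rosa-LSL-tdTomato, in which Cre expressed from the leptin receptor gene switches on a red fluorescent reporter. The reporter marks cells that have expressed Lepr at any time, and it was present in every group. Cells were placed in 384-well plates, 1 cell per well, and sequenced with CEL-seq2, which primes on poly(A) with a barcoded primer that adds a unique molecular identifier (UMI). Fed animals gave 3 plates, here fed plates 1, 2 and 3, and animals without food for 24 h gave a single plate, number 5 in the labels. The sources used here do not give the number of animals or their age and sex. Since 1 plate was fasted, the plate and the feeding state cannot be told apart. In fits of fasted against fed plates, p-values rest on the spread between fed plates, partly borrowed from other rows, and on no spread between fasted plates. In class comparisons p-values rest on how far the difference between a class and the remaining wells varies between plates. In the edgeR fits this spread is also partly borrowed from other rows.

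The mitochondrial genome encodes the RNA parts of its own ribosome, its own tRNAs and 13 subunits of the respiratory chain. Both strands are transcribed as long precursors, and the tRNAs that lie between the other genes are cut out to release the mRNAs and rRNAs. All remaining subunits of the chain, and complex II in full, are encoded in the nucleus. In the hypothalamus, mitochondrial respiration in AgRP neurons, which promote feeding, and in tanycytes, the glia that line the third ventricle, is studied as part of energy sensing.

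Wells with at least 1000 counts outside ERCC and mitochondrial rows were kept, which left 356, 329 and 338 fed wells and 275 fasted wells, or 1298 of 1536. They held 5930087, 4707313, 5064345 and 5630973 counts outside ERCC. Lepr had a count in 22.2 to 25.5% of the kept wells of a plate and in 38.5 to 77.1% of the wells of neurons. Wells were clustered on nuclear genes, without any mitochondrial row, and clusters were named from marker lists, so that a tanycyte-like well is a well of a cluster with tanycyte markers such as Rax and Crym. Values for plates are given in the order fed 1, 2 and 3, then fasted. Fed plate 1 stood apart: it had the lowest rRNA part of the mitochondrial counts, 30.2% against 43.1 to 54.5% on the other plates, and some clusters were made up mostly of its wells. Of its 87 endothelial-like wells, 54 and 18 lay in clusters that had few or no wells on the other plates, and AgRP-like wells lay mostly in different clusters on fed plate 1, fed plates 2 and 3, and the fasted plate.

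Among the 13 protein-coding genes, 6 were almost without counts. The rows of mt-Co2, mt-Co3 and mt-Atp6 held 61, 11 and 26 counts over all kept wells, those of mt-Nd3 and mt-Nd4l 113 and 9, and that of mt-Atp8 2. For comparison, mt-Cytb held 184872 counts, mt-Nd4 171503, mt-Co1 170124, mt-Nd1 100702, mt-Nd2 88144 and mt-Nd5 72469. The subunits mt-Co2 and mt-Co3 belong to cytochrome c oxidase together with mt-Co1, and mt-Atp6 and mt-Atp8 to ATP synthase.

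The mouse nuclear genome holds annotated pseudogenes that copy mitochondrial genes, and these sequences show which genes can be told from a copy by a read of 50 bases, the length of read 2. A block on chromosome 1 (mm10, chr1:24611535-24616197; sequences from GENCODE vM21 transcripts) holds 7 copies, of which Gm28661, on the minus strand, covers 99.6% of mt-Co2 without a mismatch. The bases below lie near the end of mt-Co2 (bases 622 to 681 of the gene, chrM:7634-7693), and the copies Gm28661 (chr1:24614885-24614944, minus strand) and Gm13341 (chr2:22587294-22587353, minus strand) hold the same letters.
mt-Co2: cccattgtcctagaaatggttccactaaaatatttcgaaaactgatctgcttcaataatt
Gm28661: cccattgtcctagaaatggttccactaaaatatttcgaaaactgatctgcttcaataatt
The first bases of mt-Nd3 (chrM:9459-9518) differ from its copy Gm28438 (chr1:24613060-24613119, minus strand) by the substitution T3C, counted from 1 at the first base of the gene and written in capitals.
mt-Nd3: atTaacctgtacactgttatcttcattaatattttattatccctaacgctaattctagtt
Gm28438: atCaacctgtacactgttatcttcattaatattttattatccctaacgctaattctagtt
The last 60 bases of mt-Co1 (chrM:6813-6872) are identical in Gm29216 (chr1:24615706-24615765, minus strand) and differ from Gm13340 (chr2:22588103-22588162, minus strand) by T1506C.
mt-Co1: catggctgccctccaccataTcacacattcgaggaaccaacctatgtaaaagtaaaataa
Gm13340: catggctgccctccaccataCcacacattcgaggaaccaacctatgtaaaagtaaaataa

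All 50-base windows of each gene were compared with annotated nuclear transcripts. Between 98.0 and 100% of the windows of mt-Co2, mt-Co3, mt-Atp6, mt-Nd4l and mt-Nd3 were found letter for letter in a nuclear transcript, and these 5 genes held 220 counts in all, or 0.014 to 0.325 counts per base. Among the other 8 protein-coding genes the share of such windows was between 0 and 62.2%. The highest value, 62.2%, was that of mt-Nd4, in which 0% of the last 300 windows were shared. The split is not complete. All of the last 300 windows of mt-Co1 are found in a nuclear transcript, yet its row held 110 counts per base, and mt-Atp8 has no shared window and held 2 counts. The 17 nuclear copies together held 5660 counts, equal to 0.369% of the mitochondrial counts, and the 7 on chromosome 1 held 222. How reads that fit more than 1 place were handled is not given in the sources used here, and its part in these low rows was not tested. Values for complex IV therefore describe mt-Co1 and almost nothing else, and the mitochondrial mRNAs of complex V held only 28 counts.

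**Figure D1:**
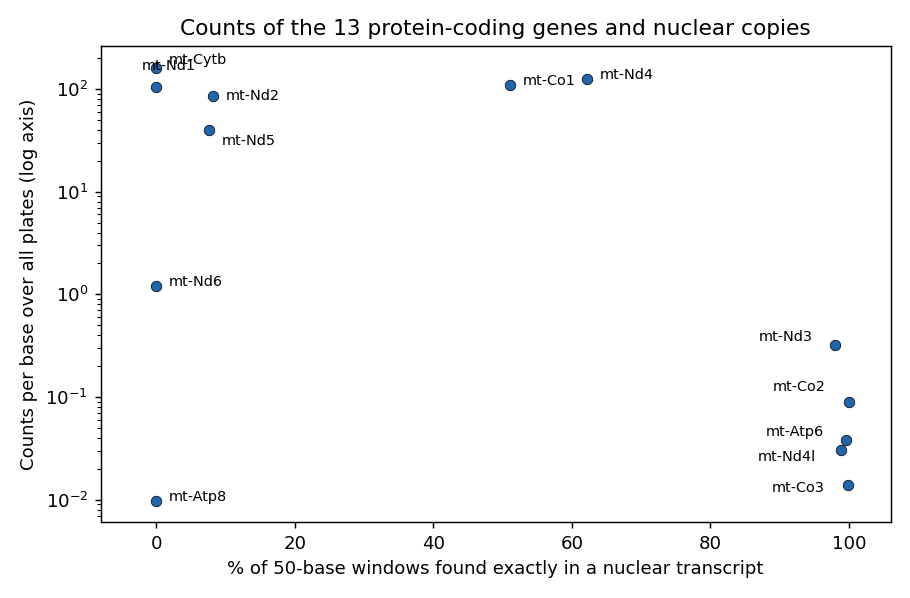
Counts per base over all 4 plates (log axis) against the percentage of 50-base windows found exactly in an annotated nuclear transcript, 1 point per protein-coding mitochondrial gene. The 5 genes at 98.0% or more sit below 0.33 counts per base, whereas mt-Co1 and mt-Nd4 sit above 100 at 51.1 and 62.2%. Of the last 300 windows, 100% of those of mt-Co1 and 0% of those of mt-Nd4 were shared.

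Most counts of the mitochondrial genome came from the rRNAs and 6 mRNAs. On the scale of all mitochondrial counts, mt-Rnr2, the large-subunit rRNA, made up 36.2%, mt-Cytb of complex III 12.04%, mt-Nd4 of complex I 11.2%, mt-Co1 11.1%, mt-Rnr1, the small-subunit rRNA, 8.28%, and mt-Nd1, mt-Nd2 and mt-Nd5 of complex I 6.56, 5.74 and 4.72%. Per base of gene, the level of mt-Rnr2 was 351 counts, that of mt-Cytb 162 and that of mt-Rnr1 133. The mRNAs mt-Nd4, mt-Co1, mt-Nd1 and mt-Nd2 followed at 124, 110, 105 and 84.9 counts per base, and mt-Nd5 had 39.7. Of the 35 rows, 20 held at least 100 counts and 15 held fewer.

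Rows on the minus strand of the reference held few counts. Of the 35 rows, 8 are on it, and together they held 0.0756% of the mitochondrial counts. The only protein-coding gene among them, mt-Nd6 of complex I, had 620 counts, or 1.19 per base.

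A pair of tRNA rows matched the rRNAs per base. The row of mt-Td, the tRNA for aspartate, held 30748 counts, or 439 per base, and that of mt-Tw, the tRNA for tryptophan, 24414 counts, or 364 per base. The rows of mt-Ti and mt-Th, for isoleucine and histidine, held 3840 and 2366 counts. All of these genes follow an abundant mRNA on the same strand, and their sequences are printed to show how they join it, with bases shared with the gene before in capitals. The gene of mt-Tw (chrM:4950-5016) and that of mt-Ti (chrM:3706-3774) overlap the end of mt-Nd2 and mt-Nd1 by 2 bases, and mt-Th (chrM:11546-11612) lies 1 base past mt-Nd4, whereas mt-Td (chrM:6942-7011) lies 69 bases past mt-Co1.
mt-Tw: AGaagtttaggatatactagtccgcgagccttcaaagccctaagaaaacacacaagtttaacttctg
mt-Ti: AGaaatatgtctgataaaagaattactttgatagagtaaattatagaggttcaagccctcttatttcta
mt-Th: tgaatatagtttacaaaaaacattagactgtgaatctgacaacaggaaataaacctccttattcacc
mt-Td: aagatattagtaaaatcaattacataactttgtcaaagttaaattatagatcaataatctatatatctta
The ratio of a tRNA row to the mRNA before it was compared between plates. The mt-Tw row held 29.8, 26.6 and 23.1% as many counts as mt-Nd2 on fed plates 1 to 3, with 29.5% on the fasted plate, within the fed range. The mt-Ti row held 3.03, 3.16 and 3.36% as many as mt-Nd1 on the fed plates against 5.84% on the fasted one, above all of them. The mt-Td row held 15.6, 15.1 and 19.97% as many as mt-Co1, against 21.8% on the fasted plate. The counts do not show whether a read came from a tRNA or from an uncut precursor.

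The mitochondrial share, the sum of the 35 rows as a percentage of all counts outside ERCC, was 6.66, 6.18 and 6.77% on the fed plates when all kept wells were pooled, or 6.54 ± 0.315% (SD, n = 3). On the fasted plate it was 8.99%, above all 3 fed plates by 2.45 points over their mean. With 3 plates against 1, no exact test can give a p below 0.25. Single wells ranged widely on every plate, from 1.27 to 19.1%, 0.774 to 47.5% and 0.608 to 45.3% on the fed plates and, fasted, from 1.82 to 62.6%.

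Among named classes with at least 5 wells on a plate, tanycyte-like wells had the highest share on every plate. It was 10.3, 11.1 and 12.2% on the fed plates against 13.9% on the fasted one, from 51, 77, 77 and 45 wells. Within a plate it exceeded the share of the remaining wells by 3.89, 5.54, 6.30 and 5.38 points, or 5.28 ± 1.01 points (SD, n = 4 plates, higher on 4 of 4). The exact two-sided sign-flip permutation test gave p = 0.13, the smallest that 4 plates allow, and 0.312 after Benjamini-Hochberg adjustment over 10 class comparisons. Both larger tanycyte-like clusters were high: the first had 10.5, 11.4, 11.96 and 14.9% and the second 10.2, 9.28, 12.4 and 11.7% on fed plates 1 to 3 and the fasted plate. Vascular and leptomeningeal-like wells, the fibroblast-like cells of vessels and meninges, had 9.01, 6.75, 9.02 and 10.4%, which exceeded the remaining wells by 1.69 ± 0.861 points (SD, n = 4 plates, higher on 4 of 4).

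Oligodendrocyte precursor-like wells had the lowest share. It was 3.68 and 3.31% on fed plates 2 and 3, with 4.81% on the fasted plate, from 9, 12 and 8 wells, and differed from the remaining wells by -3.46 points on average (SD 0.857, lower on 3 of 3 plates, exact p = 0.25, the smallest that 3 plates allow). Mature oligodendrocyte-like wells, the myelinating cells, had 6.96, 6.57 and 8.33% on the same plates, above the precursors each time. Endothelial-like wells had 4.72, 4.96, 5.60 and 5.46% and were below the remaining wells on 4 of 4 plates. Within the endothelial-like cluster found on every plate, the values were 7.40, 4.92, 6.14 and 6.11%, while the largest endothelial-like cluster of fed plate 1, with 54 wells, had 4.61%.

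Neurons did not stand out by their share. AgRP-like neurons, with the feeding peptide gene Agrp, had 6.89, 5.96 and 7.09% on the fed plates against 8.41% on the fasted one, from 81, 59, 30 and 24 wells, and differed from the remaining wells by -0.106 points on average, with a sign that changed between plates. The other neurons had 6.84, 4.87 and 4.91% and 7.53%. All neurons together lay below the remaining wells on fed plates 2 and 3 and the fasted plate, but 0.489 points above them on fed plate 1.

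Smaller classes were seen on some plates. Ependymal-like wells, the ciliated lining of the ventricle, had 8.27 and 9.38% on fed plates 2 and 3. Pars tuberalis-like wells had 9.09% on fed plate 1 and 11.1% on the fasted plate, and pericyte-like wells 5.36% on fed plate 3 and 6.81% on the fasted plate. Wells of unnamed clusters had 5.80, 5.03 and 6.57% on the fed plates, while the 8 such wells of the fasted plate had 18.7%.

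The fasted plate had the higher share in every class with a value in both states except endothelial-like wells, where 5.46% lay within the fed range of 4.72 to 5.60% when counts were pooled. As a median over wells the endothelial-like share of the fasted plate, 6.33%, was above the 4.604, 5.43 and 5.61% of fed plates 1 to 3. Microglia- or macrophage-like wells, the immune cells of the brain, had 4.79, 4.85 and 4.23% on the fed plates from 14, 7 and 8 wells, and 9.35% on the fasted plate from 22 wells. Astrocyte-like wells had 5.35 and 6.48% on fed plates 2 and 3, with 6.92% on the fasted plate, and their difference changed sign, to -0.304 points, when wells were clustered at a resolution of 1.0. In AgRP-like neurons the difference depended on the UMI scale: on observed UMIs the share was 6.62, 5.69 and 6.48% on the fed plates against 6.93% on the fasted one, a difference of 0.667 points in place of 1.76. For all neurons it was 1.11 points in place of 2.06.

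**Figure D2:**
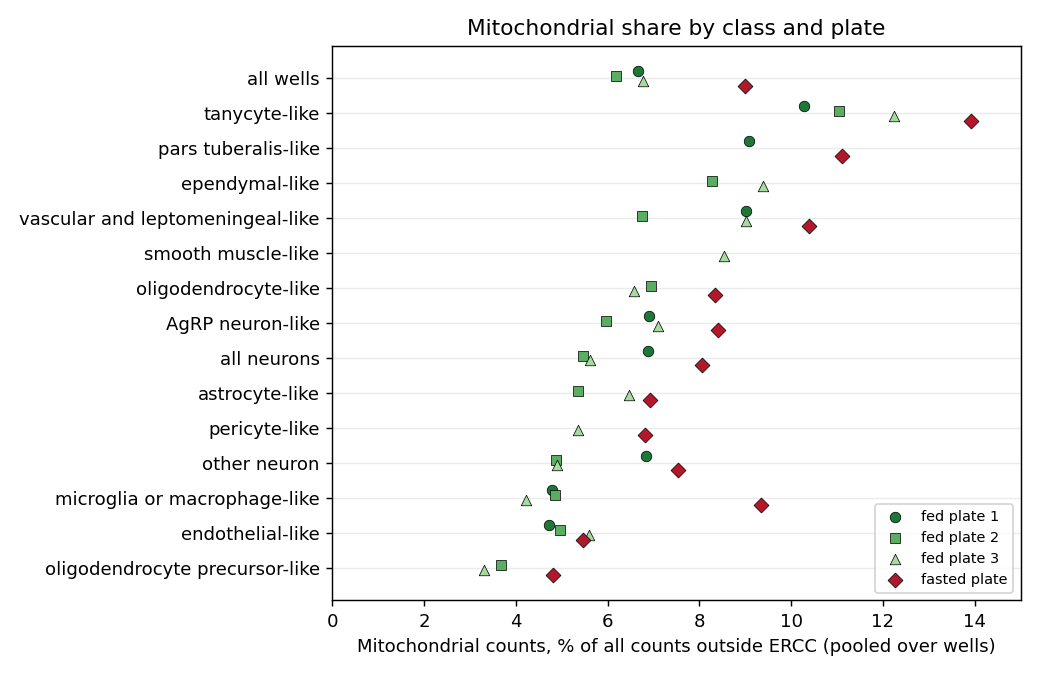
Mitochondrial counts as a percentage of all counts outside ERCC, pooled over the wells of a class on a plate, 1 point per class and plate with at least 5 wells. Tanycyte-like wells lie between 10.3 and 13.9% and oligodendrocyte precursor-like wells between 3.31 and 4.81%, and the fasted plate is above the fed plates in each class with both but endothelial-like wells.

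A share can be high because mitochondrial counts are high or because nuclear counts are low, and counts of the ERCC spike-in RNA give a scale for each of them, if the wells received the same amount of it. Per 100 ERCC counts, AgRP-like neurons held 71.0, 48.6 and 65.5 mitochondrial counts on the fed plates against 87.7 on the fasted one. Tanycyte-like wells held 38.7, 26.6 and 38.8, and 45.8, less than AgRP-like neurons on each of the 4 plates. The pool of all wells held 47.5, 27.0 and 32.8, and 45.9, so tanycyte-like wells were above it on fed plate 3 only. Nuclear counts per 100 ERCC counts were 958.7, 766.8, 857.6 and 955.3 in AgRP-like neurons but 337.5, 214.3, 278.4 and 283.2 in tanycyte-like wells. Compared with AgRP-like neurons, the tanycyte-like wells therefore combined fewer mitochondrial counts per spike-in count with a yet lower nuclear level. Their nuclear level was also below that of all wells, 665.8, 409.8, 451.8 and 464.1, on each of the 4 plates. Over all wells the fasted plate held 45.9 mitochondrial counts per 100 ERCC counts, inside the fed range of 27.0 to 47.5, in a pool of classes whose make-up differed between plates, with 122, 111, 105 and 48 neurons. Within most classes the fasted plate was above each fed plate with a value. In all neurons it held 82.4 against 67.6, 42.1 and 48.2, and tanycyte-like, astrocyte-like, both oligodendrocyte-lineage, pars tuberalis-like and pericyte-like wells were above too. In endothelial-like, microglia- or macrophage-like and vascular and leptomeningeal-like wells it lay within the fed range.

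**Figure D3:**
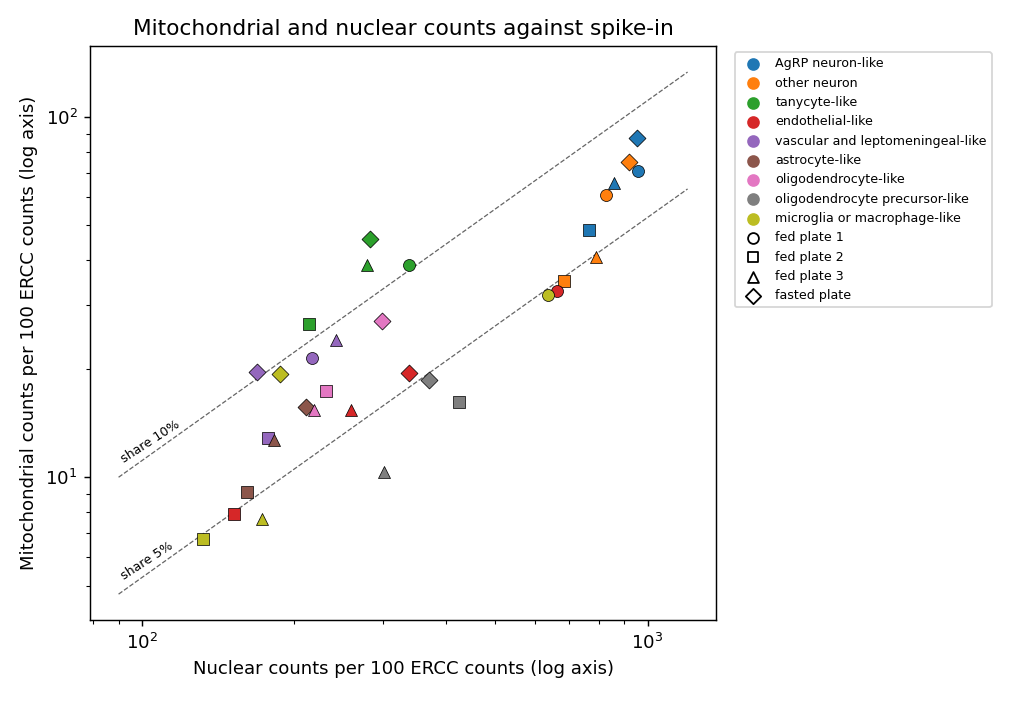
Mitochondrial counts against nuclear counts, both per 100 ERCC counts on log axes, with colour for the class and marker shape for the plate, and dashed lines at shares of 5 and 10%. Among the 9 classes drawn, both neuron classes have the highest mitochondrial level on each plate, while tanycyte-like wells reach a share of about 10% or more at a nuclear level of 214 to 338.

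Within the genome, the rRNAs took a larger part of the mitochondrial counts on the fasted plate. They made up 30.2, 43.1 and 47.2% on the fed plates, or 40.1 ± 8.87% (SD, n = 3), and 54.5% on the fasted plate. The fed plates differed widely among themselves, with fed plate 1 the lowest, and the fasted plate lay above all 3, by 14.4 points over their mean. mt-Rnr2 had 25.4, 35.6 and 38.9%, and 43.1%, and mt-Rnr1 4.802, 7.49 and 8.32%, and 11.4%. The ratio of mt-Rnr1 to mt-Rnr2 counts was 18.9, 21.1 and 21.4% on the fed plates against 26.4% on the fasted one, above all of them.

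The abundant mRNAs took a smaller part on the fasted plate, with an exception. mt-Cytb made up 15.2, 12.1 and 11.7% on the fed plates against 9.72% on the fasted one, mt-Nd4 14.3, 11.6 and 10.8%, and 8.77%, and mt-Co1 14.1, 11.2 and 10.5%, and 9.02%. For mt-Nd1 the values were 8.55, 6.92 and 6.47%, and 4.86%, and for mt-Nd2 7.78, 6.46 and 5.13%, and 4.15%. In each of these 5 genes the fasted value was below every fed plate. The exception was mt-Nd5, with 4.67, 4.52 and 4.27% on the fed plates against 5.17% on the fasted one, above all of them. The higher rRNA part on the fasted plate was seen in every class with values in both states: in tanycyte-like wells it was 33.4, 52.1 and 51.9% against 62.1%, in AgRP-like neurons 31.0, 43.8 and 52.4% against 57.0%, and in endothelial-like wells, whose share lay within the fed range, 29.1, 40.9 and 42.8% against 53.7%.

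**Figure D4:**
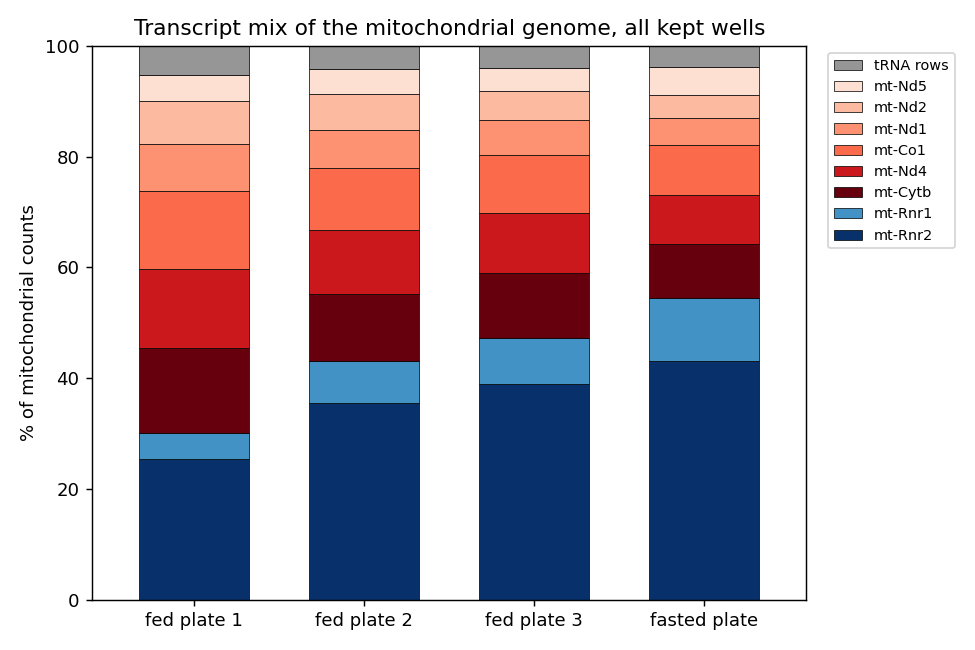
Stacked bars of the percentage of mitochondrial counts in each row, 1 bar per plate over all kept wells, with rRNAs in blue, mRNAs in red and the sum of tRNA rows in grey. The blue part grows from 30.2% on fed plate 1 to 54.5% on the fasted plate, and fed plates 2 and 3 lie between them.

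The mt-Rnr2 row came close to the number of UMIs the method has. A UMI of 6 bases gives 4096 possible labels, and mt-Rnr2 used 3615 of them in 1 fasted well, more than any nuclear row in any well, whose highest value was 1787. At least 25% of the labels were used by mt-Rnr2 in 10, 8 and 20 fed wells and in 56 fasted wells. The deposited counts correct for labels used more than a single time, and this added 6.68, 8.60 and 11.1% to mt-Rnr2 on the fed plates against 27.3% on the fasted one. For mt-Rnr1 it added 1.19 to 6.47%, and for mt-Cytb at most 4.78%. On observed UMIs the rRNA part of the fasted plate still lay 11.5 points above the fed mean, in place of 14.4, and the share 1.77 points above it, in place of 2.45.

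The fasted plate was compared with the fed plates over all rows with edgeR's quasi-likelihood method, and over all wells no mitochondrial row passed the test. Of 24 mitochondrial rows tested, 0 were called at an adjusted p under 0.05, with 4 at an unadjusted p under 0.05, and 0% of all 18290 rows were called (DESeq2 also called 0 mitochondrial rows). The values of mt-Rnr1 were 3405, 4526 and 5461 CPM (counts scaled to the same library total) on the fed plates against 10383 on the fasted one, a log2 difference of 1.22 (SE 0.339, adjusted p = 0.567). Those of mt-Rnr2 were 18026, 21517, 25503 and 39280, a log2 difference of 0.86 (SE 0.339, adjusted p = 0.611). In contrast, mt-Cytb, with a log2 difference of 0.04, and mt-Nd4, with -0.02, lay near 0. The median log2 difference of the 24 rows was 0.01, beside -0.05 over all rows. The outcome rested on fed plate 1: without it, some mitochondrial rows were called higher, while calls over all rows rose too. The log2 difference was then 1.06 for mt-Rnr1 (SE 0.202), 0.77 for mt-Nd5 and 0.84 for mt-Nd6. With a single fasted plate and fewer fed plates, p-values of that fit are not given.

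Within classes, 2 mitochondrial rows passed the test of the fasted plate against the fed plates. In tanycyte-like wells mt-Rnr1 rose, with 5684, 11260 and 11630 CPM on the fed plates against 22043 on the fasted one (log2 difference 1.21, SE 0.278, adjusted p = 0.00723, edgeR). It was the only row of 17 tested to rise and none fell, in a comparison in which 1.56% of all rows were called higher and 0.868% lower, and with DESeq2 no mitochondrial row was called. In AgRP-like neurons mt-Tt, the tRNA for threonine, fell from 23.2, 18.4 and 9.60 CPM to 2.93, which rests on 53, 33, 10 and 5 counts (log2 difference -2.58, SE 0.625, adjusted p = 0.0122, edgeR). That was 1 of 21 rows called lower and 0 called higher, beside 1.86% of all rows lower and 2.99% higher, and DESeq2 gave it no adjusted p. In the same wells mt-Rnr1 had a log2 difference of 1.04 (SE 0.309) at an adjusted p of 0.0521. Without fed plate 1 the log2 difference of mt-Rnr1 was 0.84 (SE 0.137), with 0.64 for mt-Rnr2 and 0.89 for mt-Nd5. The astrocyte-like fit included all plates, and fed plate 1 had a single well of this class. No mitochondrial row was called in the other 5 groups tested: all neurons (0.14% of all rows called higher and 0.0334% lower), other neurons (0.111 and 0.0318%), astrocyte-like (0.0228 and 0%), endothelial-like (0.0153 and 0%) and vascular and leptomeningeal-like wells (0.452 and 0.602%). At an unadjusted p under 0.05 these groups had 6, 4, 0, 1 and 0 mitochondrial rows, and DESeq2 called 2 rows higher in all neurons, 2 in other neurons and 0 in the remaining 3. With DESeq2 the number of all rows called also rose in all neurons and in other neurons. Without fed plate 1, the log2 difference of mt-Rnr1 was 1.13 in all neurons, 1.29 in other neurons and 0.94 in tanycyte-like wells. In astrocyte-like wells it was 0.92 (SE 0.219), in place of 1.38 (SE 1.14) with that single well. More mitochondrial rows were called in these classes and in AgRP-like neurons without fed plate 1, but calls over all rows rose there too. Vascular and leptomeningeal-like wells gained calls of mitochondrial rows without fed plate 3. The test of whether the feeding difference itself differed between neurons and the remaining wells called 0 of 25 mitochondrial rows with edgeR, with 1 at an unadjusted p under 0.05, and 0% of all rows.

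Compared with the remaining wells of the same plates, tanycyte-like wells had more of nearly every abundant mitochondrial transcript relative to the library total. Relative to spike-in counts, their mitochondrial counts were above the pool of all wells on fed plate 3 only. Of 23 rows tested, 16 rose and 0 fell (edgeR with the plate as a block, adjusted p under 0.05), where 17.3% of all 15641 rows were called higher and 24.2% lower. The median log2 difference of the mitochondrial rows was 0.76, beside -0.07 over all rows. The rRNAs rose most among the abundant rows, mt-Rnr1 by a log2 difference of 1.22 (SE 0.136, adjusted p = 3.62e-07) and mt-Rnr2 by 1.08 (SE 0.133), from 23438 ± 9314 to 49369 ± 16212 CPM (SD, n = 4 plates). The mRNAs followed, mt-Nd5 by 0.82, mt-Cytb by 0.82, mt-Co1 by 0.81, mt-Nd4 by 0.59, mt-Nd2 by 0.41 and mt-Nd1 by 0.33. The minus-strand mRNA mt-Nd6 also rose, by 0.69. Among the tRNA rows, mt-Tm, for methionine, rose by 1.66, from 47.5 ± 15.01 to 147 ± 16.8 CPM (SD, n = 4), and mt-Td by 0.78. The count of 16 was 8 without fed plate 2 or without fed plate 3, and 9 when rows with at least 1 count were all tested.

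Oligodendrocyte precursor-like wells showed the reverse relative to the library total. Of 21 rows tested, 11 fell and 0 rose, against 13.6% of all rows called lower and 7.64% higher. mt-Rnr2 fell by 1.35 on the log2 scale (SE 0.173), from 30871 ± 9962 to 12461 ± 5688 CPM (SD, n = 3 plates), mt-Nd5 fell by 1.18, mt-Nd1 by 0.99, mt-Rnr1 by 0.98 and mt-Co1 by 0.84. All 8 abundant mRNA and rRNA rows fell, each lower on 3 of 3 plates. The count was 5 without fed plate 3. Per 100 ERCC counts the precursors held 16.2, 10.3 and 18.7 mitochondrial counts on fed plates 2 and 3 and the fasted plate. The pool of all wells held more on each, but astrocyte-like wells held 9.13, 12.7 and 15.7. Nuclear counts on that scale were 423, 302 and 370 in the precursors and 161, 183 and 211 in astrocyte-like wells. Endothelial-like wells had 7 of 23 rows lower and 0 higher. The part called lower was close to the 26.4% of all rows, of which 17.6% were called higher. Among the abundant rows the fall was largest for mt-Nd5, by 0.63, then mt-Rnr2, by 0.55. The count of 7 was 3 when fed plate 1 or the fasted plate was left out, 4 when fed plate 2 or 3 was, and 4 with DESeq2.

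Mature oligodendrocyte-like wells differed in the mix. Of 22 rows, 7 rose and 1 fell, against 10.1% of all rows called higher and 17.6% lower. The mRNAs mt-Co1, mt-Nd4, mt-Cytb and mt-Nd1 rose, by log2 differences of 0.93 (SE 0.165), 0.70, 0.63 and 0.57, whereas mt-Rnr2 fell by 0.42 (SE 0.153, adjusted p = 0.0277). The rRNA part of the mitochondrial counts was 30.8 and 28.1% on fed plates 2 and 3, with 40.7% on the fasted plate, and differed from the remaining wells by -15.5 points on average (SD 3.45, lower on 3 of 3 plates, exact p = 0.25). mt-Co1 made up 15.9% of the mitochondrial counts on average, against 10.1% in the remaining wells, a difference of 5.88 ± 0.243 points (SD, n = 3 plates). In this comparison the median over all rows was -0.39, and with library size in place of TMM factors it moved by -0.34. The calls over all rows were then 1190 higher and 3937 lower in place of 1473 and 2576, and 4 mitochondrial rows in place of 7 were called higher, while the named genes kept their sign. Fed plates 2 and 3 held 8 and 6 wells of this class. Per 100 ERCC counts the class held 17.3, 15.4 and 27.2 mitochondrial counts on fed plates 2 and 3 and the fasted plate, each below the pool of all wells. The 7 rows higher were 3 without fed plate 2 or the fasted plate, 4 without fed plate 3 and 2 with DESeq2, and mt-Rnr2 was not called without fed plate 2 or 3.

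Other classes differed in the mix too. In vascular and leptomeningeal-like wells 5 of 22 rows rose and 0 fell (10.4 and 16.9% of all rows), namely mt-Rnr1 by 0.78, mt-Cytb by 0.72, mt-Nd2 by 0.54, mt-Tw by 0.52 and mt-Nd4 by 0.49. The 5 rows were 3 without fed plate 1 or 2 and 2 without fed plate 3. mt-Co1 made up a smaller part of their mitochondrial counts than in the remaining wells, 9.31 against 11.3%, lower on 4 of 4 plates with a difference of -1.98 points on average (SD 0.186), and mt-Cytb a larger part, 15.1 against 12.1%. The rRNA part of tanycyte-like wells exceeded that of the remaining wells by 7.52 ± 3.37 points (SD, higher on 4 of 4 plates), and that of astrocyte-like wells lay below on 3 of 3 plates. In each of these comparisons the exact test gave the smallest p its number of plates allows, 0.13 for 4 and 0.25 for 3.

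**Figure D5:**
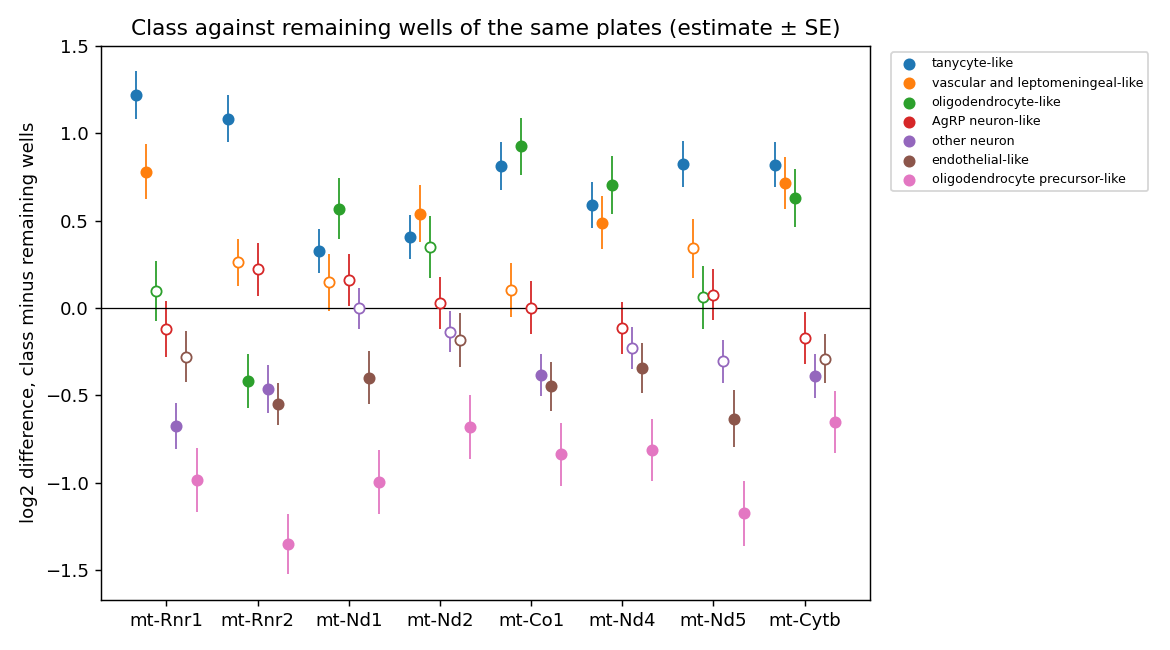
Log2 difference of each class against the remaining wells of the same plates, edgeR estimate with its standard error as the bar, for the 2 rRNAs and the 6 abundant mRNAs, with filled points at an adjusted p under 0.05. Tanycyte-like wells lie above 0 and oligodendrocyte precursor-like wells below 0 for all 8 genes, while oligodendrocyte-like wells are above 0 for mt-Co1 and below 0 for mt-Rnr2.

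In neurons few mitochondrial rows passed the test. For all neurons against the remaining wells, 2 of 24 rows fell and 0 rose, against 30.9% of all rows called lower and 27.1% higher: mt-Tm fell by 1.26 (SE 0.165, adjusted p = 0.000342) and mt-Rnr1 by 0.65 (SE 0.195, adjusted p = 0.0204). AgRP-like neurons had 1 of 22 rows lower and 0 higher (26 and 18% of all rows), mt-Tm, which fell by 0.68. The other neurons had 6 of 22 rows lower and 0 higher, among them mt-Rnr1, which fell by 0.68, and mt-Rnr2, by 0.46. The part called lower was close to the 23.6% of all rows, of which 18.1% were called higher. For all neurons 5 rows fell when fed plate 1 was left out and 1 when fed plate 2, fed plate 3 or the fasted plate was, and for other neurons 2 fell without fed plate 3. Astrocyte-like wells had 1 row lower of 20 and 0 higher (20 and 13.4% of all rows), mt-Rnr2. Microglia- or macrophage-like wells had 1 row lower of 22 and 0 higher (14.4 and 7.59%), mt-Tt, with 0 counts in all of their 51 wells, which allows up to 7.33 CPM, beside 13.1 in the remaining wells. The mt-Rnr2 call was lost without fed plate 2 or the fasted plate, and the mt-Tt call when fed plate 1, 2 or 3 was left out. DESeq2 called neither of these rows.

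Nuclear subunits of the respiratory chain were compared in the same fits. In all neurons 29 of 36 nuclear subunits of complex I rose, 6 of 9 of complex III, 10 of 11 of complex IV and 11 of 16 of complex V, and none of these fell, where 27.1% of all rows were called higher and 30.9% lower. Examples were Ndufa5 of complex I (log2 difference 1.31), Cox5a of complex IV (1.03) and Atp5g1 of ATP synthase (1.48). No mitochondrial row rose in neurons. In tanycyte-like wells, where 24.2% of all rows were called lower and 17.3% higher, 10 of 36 of complex I, 4 of 9 of complex III, 5 of 11 of complex IV and 8 of 16 of complex V fell, and Ndufc2 was the only one of these to rise. For complex I the part that fell was close to that of all rows. The median log2 differences of these complexes lay between -0.25 and -0.48, beside -0.07 over all rows and 0.76 for the mitochondrial rows. In oligodendrocyte precursor-like wells 8 of 36, 6 of 9, 6 of 11 and 5 of 16 nuclear subunits of these complexes fell and none rose, beside 13.6% of all rows called lower and 7.64% higher. Among genes for mitochondrial transcription and RNA handling, Lrpprc, whose product stabilises mitochondrial mRNAs, rose in neurons by 0.98 and fell in tanycyte-like wells by 0.85. Hsd17b10, a subunit of the enzyme that cuts tRNAs at their 5′ ends, fell in neurons by 1.08 and rose in tanycyte-like wells by 1.49.

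The ratio of mitochondrial to nuclear mRNA counts within a complex shows the same contrast between tanycyte-like wells and neurons. For complex I it was 7.56, 6.61 and 6.96 in tanycyte-like wells of the fed plates and 8.65 in those of the fasted plate, against 4.68, 3.42, 3.17 and 4.85 in neurons. For complex III, with mt-Cytb as the only mitochondrial subunit, it was 13.97, 12.1, 13.7 and 17.6 in tanycyte-like wells and 6.46, 4.81, 4.54 and 6.56 in neurons. The tanycyte-like wells were above the neurons on each of the 4 plates for both complexes, and for complex IV, where mt-Co1 stands for the mitochondrial subunits. Being above the neurons was not particular to tanycyte-like wells. The complex I ratio was 9.19, 6.13, 7.44 and 10.6 in vascular and leptomeningeal-like wells and 5.51, 4.95, 5.23 and 5.82 in endothelial-like wells. Oligodendrocyte precursor-like wells lay nearer the neurons, with 3.58, 3.96 and 4.83 on fed plates 2 and 3 and the fasted plate. Over all wells the complex I ratio was 5.33, 4.06 and 4.17 on the fed plates against 6.26 on the fasted one.

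In fasted against fed wells the nuclear subunits had negative medians, though few passed the test. Over all wells the median log2 difference was -0.41 for complex I, -0.35 for complex III and -0.52 for complex IV, beside -0.05 over all rows, with 0 called in each list (edgeR). In AgRP-like neurons, 2 of 36 complex I subunits fell: Ndufb11 by 0.92 and Ndufa7 by 0.74 (adjusted p = 0.0122 and 0.0423), where 1.86% of all rows were called lower and 2.99% higher. In the same wells Atp5e of ATP synthase fell by 0.75. In tanycyte-like wells Uqcr11 of complex III fell by 1.35, Atp5e by 1.29 and Sdhc of complex II by 1.42, where 0.868% of all rows were called lower.

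Across wells of a class on a plate, a higher share went with a higher rRNA part in each of 25 class and plate combinations, with Spearman coefficients from 0.136 to 0.623 and a median of 0.388. Against nuclear counts the coefficients of the share were between -0.552 and 0.534, with 18 of 25 below 0. Both measures of a well come from the same counts, so these coefficients describe the wells and carry no test. Wells with a share of 30% or more numbered 19, with 0, 7 and 7 from the fed plates and 5 from the fasted plate, and 11 of them were tanycyte-like. Their median nuclear count was 2051, against 9990 in the other wells, and the rRNAs made up 58.7% of their mitochondrial counts, against 44.1%. Leaving them out changed the tanycyte-like count of rows that rose from 16 to 13.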

How the data were processed

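Single-cell CEL-seq2 plates of sorted hypothalamic cells (3 fed, 1 fasted) were analysed from 4 deposited tables. The deposited values are estimated counts: the authors counted UMIs and, as every value in the files shows, corrected them for UMIs used more than a single time. Per the submitters' processing notes, Trim Galore, STAR and the mm10 build were used. For the UMI counter, the annotation release and the handling of reads with several matches, the answer is not given in the sources used here.

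The rule for mitochondrial rows uses no measured value, but this gene group, the gene lists and the tests were chosen with earlier results of these data known. Wells with at least 1000 counts outside ERCC and mitochondrial rows were kept. Clusters (scanpy 1.11.5, 2000 variable nuclear genes, 30 principal components, 10 neighbours, Leiden resolution 1.5) were named where at least 3 markers were met, and 3 of 26 clusters stayed unnamed. No doublet caller was run on these sorted single wells, and all plates share the same 384 well barcodes by design. Counts were summed per plate and class, rounded and tested with edgeR 4.0.16 (quasi-likelihood, TMM factors, Benjamini-Hochberg adjustment over all rows, threshold 0.05), with the plate as a block for class comparisons. A class entered class comparisons on plates with at least 5 wells. It entered fasted against fed comparisons where the fasted plate and at least 2 fed plates had at least 10 wells, and all plates with a well of it were then used. Shares were compared with exact two-sided sign-flip permutation tests over plates. Any mitochondrial row could be named, with tRNA rows mainly by their counts, and in nuclear lists up to 4 called genes with the largest log2 difference per comparison and list. Annotated nuclear copies were found with blastn 2.17.0 (at least 90% identity) among GENCODE vM21 transcripts of mm10, from which the printed sequences come; they are written here as DNA. The tests were tested on simulated data: over all wells, fasted against fed, 3% of 2-fold and 49% of 4-fold changes were recovered, and for neurons against the remaining wells 68 and 98%. Alternatives were DESeq2 1.42.0, other scaling factors, filters on rows and wells, observed UMIs, other clusterings and leaving out each plate.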

Additional observations from a re-analysis of the deposited data

Results flagged for a closer look

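Wells under 1000 nuclear counts were left out of the comparisons, and they also held mitochondrial counts. In the 28, 55 and 46 wells left out of fed plates 1 to 3, mitochondrial rows made up 16.9, 21.0 and 24.1% of the counts outside ERCC, and in the 109 wells left out of the fasted plate 14.5%. These wells held a median of 412, 465, 755 and 29 counts. They were chosen by low nuclear counts, which are most of what the share is divided by, so their shares are not comparable with those of the kept wells. They had no class, and the share by cell type is not known.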

How the results depend on the processing

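For shares, 271 of 287 alternatives moved by less than the SD over the plates behind the value, as did 238 of 239 for the rRNA and protein-coding parts. The alternatives include leaving out each plate, which cannot move a mean by as much as that SD. These counts therefore overstate how little the values depended on the settings. The fasted minus fed share over all wells, 2.45 points, was 1.77 with observed UMIs and 2.09 as a median over wells. Counts of called mitochondrial rows moved in 59 of 372 alternatives. Of 3868 alternatives for single genes, 448 lost and 42 gained a call, with 0 reversed.

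For fasted against fed wells, keeping rows with at least 1 count gave 2 rows higher over all wells, 1 higher and 1 lower for all neurons, 1 higher for AgRP-like and 1 higher for other neurons. DESeq2 gave 2 higher for all neurons, 2 for other neurons, 1 for AgRP-like neurons with 0 lower, and 0 for tanycyte-like wells. In AgRP-like neurons 1 row was also higher with RLE factors, in wells with a share under 30% and in wells with at least 3000 counts. With rows of at least 1 count, the number of all rows called higher also rose in each of these groups, as did the number tested. DESeq2 also called more of all rows in all neurons and other neurons, and fewer in AgRP-like neurons and tanycyte-like wells. For classes against the remaining wells, DESeq2 gave 0 rows lower for astrocyte-like, 4 for endothelial-like and 0 for microglia- or macrophage-like wells, and 2 higher and 0 lower for oligodendrocyte-like wells. It called fewer of all rows lower in each of these classes too. With rows of at least 1 count there were 9 higher for tanycyte-like, 2 for vascular and leptomeningeal-like and 2 for oligodendrocyte-like wells, and 0 lower for microglia- or macrophage-like wells. Oligodendrocyte-like wells had 4 higher with library size alone and 0 lower in wells under 30%. With library size alone the median log2 difference over all rows also moved by -0.16 for astrocyte-like, -0.12 for endothelial-like, 0.17 for microglia- or macrophage-like and -0.10 for vascular and leptomeningeal-like wells against the remaining wells, and by -0.15 for astrocyte-like wells of the fasted against the fed plates. The causes of these moves were not tested.

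Leaving out in turn each fed or fasted plate that entered a comparison gave, for fasted against fed, 0 to 4 rows higher over all wells, 0 to 5 higher and 0 to 1 lower for all neurons, 0 to 5 higher and 1 to 3 lower for AgRP-like neurons, 0 to 4 higher for other neurons, 0 to 1 for astrocyte-like, 1 to 2 for tanycyte-like and 0 to 2 for vascular and leptomeningeal-like wells. The highest counts came without fed plate 1, except the last, without fed plate 3. Without fed plate 1, calls over all rows also rose in every group but vascular and leptomeningeal-like wells. For classes it gave 1 to 5 lower for all neurons, 2 to 7 for other neurons, 0 to 1 for astrocyte-like, 3 to 4 for endothelial-like, 0 to 1 for microglia- or macrophage-like and 5 to 11 for oligodendrocyte precursor-like wells, 3 to 4 higher and 0 to 1 lower for oligodendrocyte-like, 8 to 16 higher for tanycyte-like and 2 to 4 higher for vascular and leptomeningeal-like wells.

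No paired analysis was possible because the fed plates are numbered 1 to 3 and the single fasted plate is number 5 in the labels, which no fed plate shares. The limit of 500 counts per well was tried over all wells only, since wells below 1000 counts have no class. With 1 fasted plate, no test of feeding can separate the state from the plate, and the number of animals behind each plate is not known.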
